A study of Mus musculus with 20 samples.

Results

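The R-spondin genes are *Rspo1*, *Rspo2*, *Rspo3* and *Rspo4*, 4 of the 43280 gene symbols in the count tables, and they were taken by gene name, under a rule that uses no measured value. Their RNA was counted in 12 RNA-seq libraries of sorted mouse gut mesenchyme, and accessible chromatin at their loci was read from 4 lists of ATAC-seq peaks. At embryonic day E13.5, GFP+ cells came from the intestine and the stomach of control embryos (*Bapx1* Cre/+;*Rosa26* mTmG) and of *Eed* KO embryos (*Bapx1* Cre/+;*Eed* fl/fl;*Rosa26* mTmG), with 2 libraries per organ and genotype. The labels give C57BL/6 as the strain, whereas the methods describe mixed backgrounds for most of the mouse lines. All of these embryos carried the Cre, so a GFP+ cell is one that expresses *Bapx1*, also called *Nkx3-2*, or descends from such a cell. The adult libraries came from GFP+ cells of the small intestine after removal of the villi, 2 labelled WT and 2 labelled EED-KO. According to the methods, both adult groups carried *Pdgfrb* Cre-ERT2/+ and *Rosa26* mTmG, the second also *Eed* fl/fl, and the mice were about 10 weeks old and were dissected 2 days after the last of 5 daily tamoxifen injections. *Eed* encodes a core subunit of Polycomb repressive complex 2 (PRC2), which trimethylates histone H3 at lysine 27 and keeps many developmental genes silent.

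R-spondins are secreted proteins that amplify Wnt signals. They bind the receptors LGR4, LGR5 and LGR6 and draw the E3 ubiquitin ligases RNF43 and ZNRF3 away from Frizzled, so that more Wnt receptor stays on the cell surface. In the gut they are made mostly by mesenchymal cells and act on the epithelium, where Wnt and R-spondin together maintain the intestinal stem cells. RSPO4 is best known from nail development.

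Embryonic libraries held between 30236159 and 39606157 counts on genes and adult libraries between 11404712 and 15903642, so a count of 0 allowed up to 0.0992 CPM (counts scaled to the library total) in the embryo and 0.263 CPM in the adult, counting error only. *Eed* itself fell in the embryo, from 38.1 and 40.1 CPM to 10.7 and 8.59 CPM in the intestine and from 40.1 and 41.5 CPM to 11.5 and 7.40 CPM in the stomach. In the adult libraries labelled *Eed* KO it was at 25.7 and 25.05 CPM, against 29.7 and 33.4 CPM in the controls, and this difference did not pass the test (log2 fold change -0.32, adjusted p = 0.317). The 7 mesenchyme markers summed to between 12998.5 and 24468.5 CPM in the embryo, while 5 macrophage and leukocyte markers summed to at most 2.47 CPM there. In the adult, the mesenchyme markers were lower in the *Eed* KO (3440.39 and 4956.04 CPM) than in the control libraries (11332.3 and 11855.8 CPM), and the macrophage and leukocyte markers were far higher (8237.73 and 8248.56 against 206.074 and 362.521 CPM).

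The 4 genes lie on different chromosomes of the mouse genome GRCm38/mm10. *Rspo1* spans chr4:124986430-125009099 on the plus strand with 6 exons, *Rspo2* spans chr15:43020811-43170818 on the minus strand with 6, *Rspo3* spans chr10:29453109-29535867 on the minus strand with 5, and *Rspo4* spans chr2:151842927-151874668 on the plus strand with 5. None shared exon bases with another counted gene. *Rspo4* holds an antisense gene, *Rspo4os*, inside its span, which had at most 4 counts in any library. Another gene, *Gm12930*, overlaps the span of *Rspo1* and the region of its promoter peak, also with at most 4 counts in any library.

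The RefSeq promoter table (GRCm38.p6) held 2 of the 4 genes, *Rspo1* and *Rspo4*, and the promoters of these are printed. In the *Eed* KO stomach *Rspo4* was called higher and *Rspo1* lower, and any part of the promoter sequence in this was not tested. Each sequence runs 5′ to 3′ on the plus strand, from 250 bases before to 50 bases after the annotated start, with every CG dinucleotide in capitals.
*Rspo1*, chr4:124986180-124986479: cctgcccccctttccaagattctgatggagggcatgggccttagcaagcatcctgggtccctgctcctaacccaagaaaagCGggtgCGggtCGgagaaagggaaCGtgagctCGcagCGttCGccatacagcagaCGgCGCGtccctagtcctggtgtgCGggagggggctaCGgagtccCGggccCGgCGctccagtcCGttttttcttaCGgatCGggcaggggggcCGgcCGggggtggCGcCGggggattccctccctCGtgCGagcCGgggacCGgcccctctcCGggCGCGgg
*Rspo4*, chr2:151842677-151842976: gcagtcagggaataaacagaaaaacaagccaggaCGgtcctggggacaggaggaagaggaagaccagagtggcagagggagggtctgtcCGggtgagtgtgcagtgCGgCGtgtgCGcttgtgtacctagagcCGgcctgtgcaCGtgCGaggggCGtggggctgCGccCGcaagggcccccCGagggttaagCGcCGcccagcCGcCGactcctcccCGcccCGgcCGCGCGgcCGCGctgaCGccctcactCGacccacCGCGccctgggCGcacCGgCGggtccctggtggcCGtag
The *Rspo1* promoter held 29 CG dinucleotides and 69% G and C, and the *Rspo4* promoter held 31 and 71%. A CG reads the same on both strands and occurred at least once in 94.6% of the 32851 promoters in the table, with a median of 7 per promoter. The 2 counts were higher than those of 87.1% and 89.4% of these promoters.

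All 4 R-spondin genes carried a peak over their transcription start in each of the 4 ATAC-seq lists. Each list was called on pooled replicates, so no spread between replicates can be given, and peaks of different lists were described without a test. Among 16191 genes, 87% had a peak within 1000 bp of the start in all 4 lists, so the count of 4 of 4 is near what most tested genes showed. The strength of these peaks is given as fold enrichment, the ratio of ATAC-seq signal to the background that the MACS2 peak caller estimates. At *Rspo2* it was 6.88 in the control intestine, 5.92 in the *Eed* KO intestine, 5.83 in the control stomach and 6.20 in the *Eed* KO stomach, between the 36.002 and 49.5 percentiles of promoter peaks. *Rspo4* followed, at 5.98, 5.53, 4.78 and 5.65 in the same order, between the 21.4 and 36.7 percentiles. Its promoter was thus in a peak also in the 2 control lists, although the control libraries held almost no *Rspo4* RNA. *Rspo3* had values of 3.98, 3.49, 4.25 and 4.29, between the 8.93 and 17.1 percentiles, in a broad peak of 3200 to 3332 bp. *Rspo1* had the weakest promoter peak in every list but the control stomach, where it reached 4.52, at the 18.1 percentile of promoter peaks. It was at 3.06, 2.89 and 2.98 in the control intestine, the *Eed* KO intestine and the *Eed* KO stomach, between the 3.51 and 3.53 percentiles. The control stomach was also the group with the most *Rspo1* RNA.

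Merged peaks within 10000 bp of each gene, the promoter peak included, gave 6 regions at *Rspo1*, 12 at *Rspo2*, 5 at *Rspo3* and 6 at *Rspo4*. Of these, 3, 2, 3 and 4 were in all 4 lists. One of the 3 at *Rspo1*, chr4:125014540-125018037, overlapped the neighbouring gene *Gnl2*, with its centre 297 bp from the *Gnl2* start. *Rspo2*, by far the longest of the genes at 150008 bp, had 10 peaks in the control stomach list, 7 in the *Eed* KO stomach, 5 in the *Eed* KO intestine and 3 in the control intestine. One intronic *Rspo2* region of 196 bp, chr15:43167783-43167978, about 2.94 kb inside the gene, was in both *Eed* KO lists, with fold enrichments of 5.03 and 5.55 and -log10 q values of 20.3 and 28.2, and in neither control list. Among 20346 *Eed* KO intestine peaks whose -log10 q reached 20, 36 (0.177%) overlapped an *Eed* KO stomach peak and no control peak. That threshold lies just under this region's own value of 20.3, and without it the share was 5.97%. The region was singled out for its absence from the control lists, so these shares are descriptions and no test. At *Rspo3*, an intronic region 55.6 kb from the start, chr10:29479194-29481260, had a higher fold enrichment than the promoter in every list. It was at 5.54 in the control intestine, 6.80 in the *Eed* KO intestine, 5.87 in the control stomach and 5.60 in the *Eed* KO stomach. Its -log10 q was 15.6, 19.5, 17.0 and 11.8 in that order, against 21.8, 16.0, 19.5 and 27.7 at the promoter. By that measure the promoter was ahead in every list but the *Eed* KO intestine. At *Rspo4*, an intronic region 19.7 kb from the start, chr2:151862466-151862730, was in the 2 *Eed* KO lists only, at 2.99 and 3.20. Of all *Eed* KO intestine peaks, 5.97% overlapped an *Eed* KO stomach peak and no control peak. A region downstream of *Rspo4*, chr2:151879488-151880087, lay in no counted gene and had fold enrichments of 2.33 and 3.27 in the control intestine and stomach and of 5.71 and 5.17 in the *Eed* KO intestine and stomach. The -log10 q values were 1.09, 3.19, 15.1 and 11.2 in that order, the first near the weakest peaks of the lists. How many regions elsewhere differed as much was not counted.

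**Figure D1:**
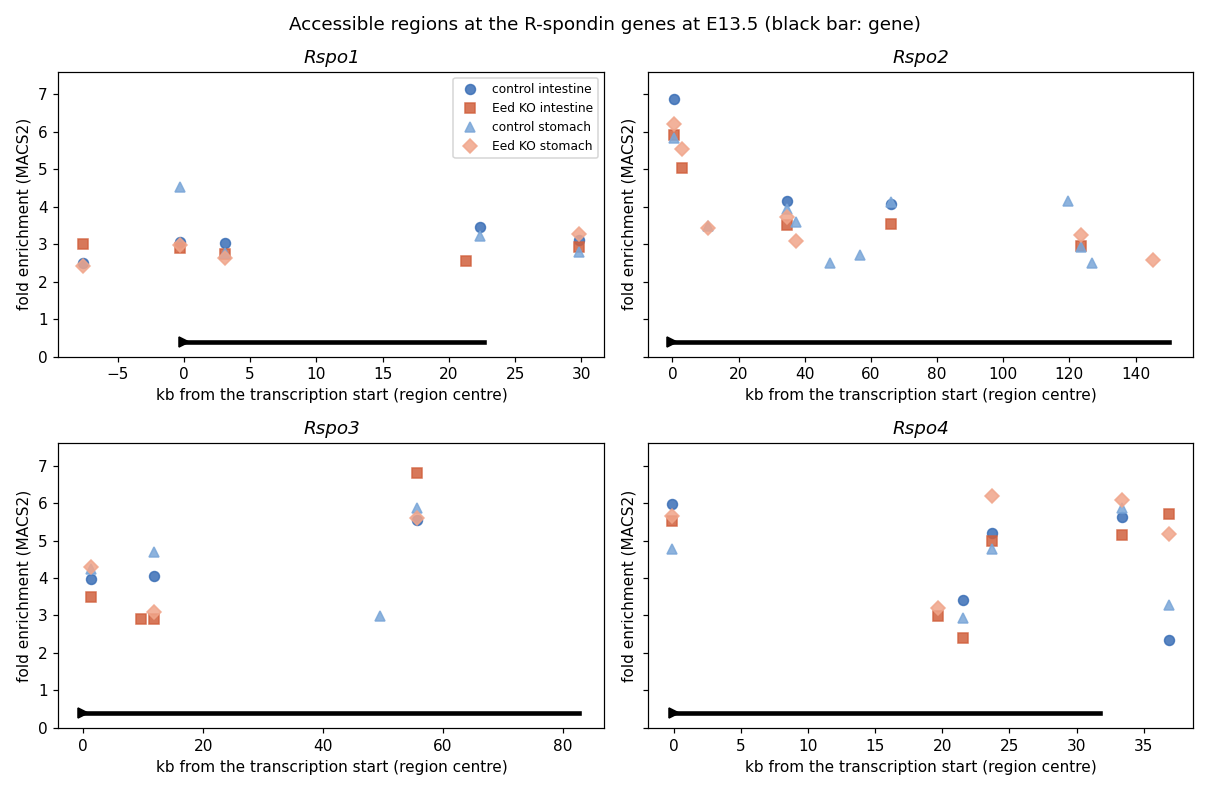
ATAC-seq regions at the 4 R-spondin genes at E13.5, as MACS2 fold enrichment against the distance of the merged region's centre from the transcription start in kb, with 1 point per list and the gene drawn as a black bar from its start. The promoter points of *Rspo2* reach 6.88, and the farthest downstream region of *Rspo4* is at 5.71 and 5.17 in the *Eed* KO lists and at 2.33 and 3.27 in the control lists.

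At E13.5, *Rspo3* and *Rspo1* were abundant, *Rspo2* was intermediate and *Rspo4* was near the limit of detection. Levels of different genes were compared in TPM, transcripts scaled to the library total, which divides counts by exon length. In the control intestine the order was *Rspo3* at 101.9 ± 4.67 TPM, *Rspo1* at 45.7 ± 8.12, *Rspo2* at 12.05 ± 0.442 and *Rspo4* at 0.0781 ± 0.0117 (SD, n = 2). In the control stomach *Rspo1* came first at 91.4 ± 16.6 TPM, followed by *Rspo3* at 74.1 ± 7.33, *Rspo2* at 33.3 ± 13.0 and *Rspo4* at 0.119 ± 0.0627. The ranges of *Rspo1* (79.6 and 103.1 TPM) and *Rspo3* (69.0 and 79.3 TPM) in that organ lay next to each other without overlap, and their difference was not tested.

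The mixture of R-spondin RNA had a different leading gene in each control organ, with no test of the shares. Control intestine libraries had 66.8% and 60.9% of their summed R-spondin TPM from *Rspo3*, compared with 39.9% and 35.2% for control stomach libraries. *Rspo1* contributed 25.3% and 31.8% to the intestinal sum but 46.1% and 45.8% to the gastric sum. *Rspo3* again led in the *Eed* KO stomach, with 54.3% and 54.9%, and *Rspo1* held 36.2% and 30.5%. The sum of the 4 genes was 159.7 ± 3.02 TPM in the control and 130.6 ± 6.39 in the *Eed* KO intestine, and 198.9 ± 37.0 in the control and 138.5 ± 8.34 in the *Eed* KO stomach. In both organs the sum was lower in the *Eed* KO libraries without overlap, with no test of the sum.

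**Figure D2:**
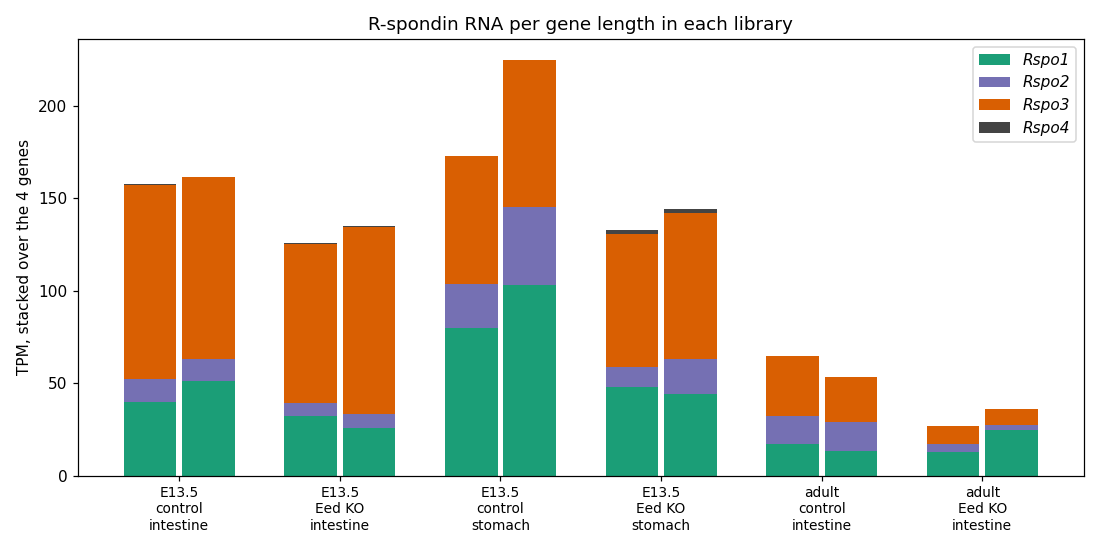
TPM of the 4 R-spondin genes stacked for each of the 12 libraries, 2 bars per group with replicate 1 on the left. *Rspo1* takes the largest part of the bars in the control stomach and in the adult *Eed* KO, *Rspo3* in the other 4 groups, and *Rspo4* is visible only as a thin top in the *Eed* KO stomach.

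Between the control organs, *Rspo1* and *Rspo2* were lower in the intestine than in the stomach, and *Rspo3* was slightly higher. *Rspo1* was at 26.2 and 32.7 CPM in the intestine and at 50.7 and 65.9 CPM in the stomach. Every intestinal library lay below both stomach libraries (log2 fold change -0.98, SE 0.19, adjusted p = 0.0233), but the change fell just short of the required size of 1 on the log2 scale. *Rspo2* was at 13.9 and 12.8 CPM in the intestine and at 26.3 and 46.5 CPM in the stomach, again without overlap, and passed both thresholds (-1.44, SE 0.31, adjusted p = 0.0336). *Rspo3* was at 85.4 and 77.6 CPM in the intestine and at 54.3 and 62.6 CPM in the stomach (0.48, SE 0.11, adjusted p = 0.0511). *Rspo4* had 2 counts in each intestinal library, compared with 2 and 5 in those of the stomach, too few for a fold. Of the 4 members 1 was thus called lower in the intestine and none higher, where 3.39% and 1.68% of all 16218 tested genes were called. The *Rspo2* call was lost without control intestine replicate 1 or 2 (adjusted p = 0.188 and 0.186) and without control stomach replicate 2 (log2 fold change -0.97, adjusted p = 0.179), whereas *Rspo1* was called as well without control stomach replicate 1 (-1.16, adjusted p = 0.0428). Several cell type markers differed between the control organs as well. Of 12 marker lists, the summed CPM of 4 was lower in the intestine without overlap, that of 4 was higher and that of 4 overlapped. With 2 libraries against 2, a list of unchanged markers separates in either direction with a probability of 0.333. Mesothelium markers summed to 332.596 and 507.37 CPM in the intestine against 539.538 and 561.22 CPM in the stomach, with *Wt1* called lower. *Upk3b* and *Upk1b* of that list overlapped, and *Msln*, at most 0.707 CPM, was higher in the intestine. Lymphatic endothelium, epithelium and crypt-base fibroblast markers also summed to less, with *Flt4*, *Ccl21a*, *Epcam* and *Cldn4* called. The crypt-base sum was mostly *Cd81* (248.0 and 248.9 against 316.0 and 360.7 CPM), *Grem1* and *Ackr4* overlapped, and epithelial *Krt8* was higher. Enteric neural crest, pericyte, telocyte and pancreas markers summed to more, with *Ednrb* and *Rgs5* called. The neural crest sum was mostly *Ednrb*, and *Ret*, *Kcnj8* and *Bmp7* of these lists were lower without overlap. Lymphatic *Prox1*, endothelial *Pecam1* and *Cdh5* and smooth muscle *Des* were called higher too, while the summed endothelial markers overlapped. Their part in the R-spondin differences was not tested, and fewer cells of a type cannot be told apart from less RNA per cell in bulk samples.

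**Figure D3:**
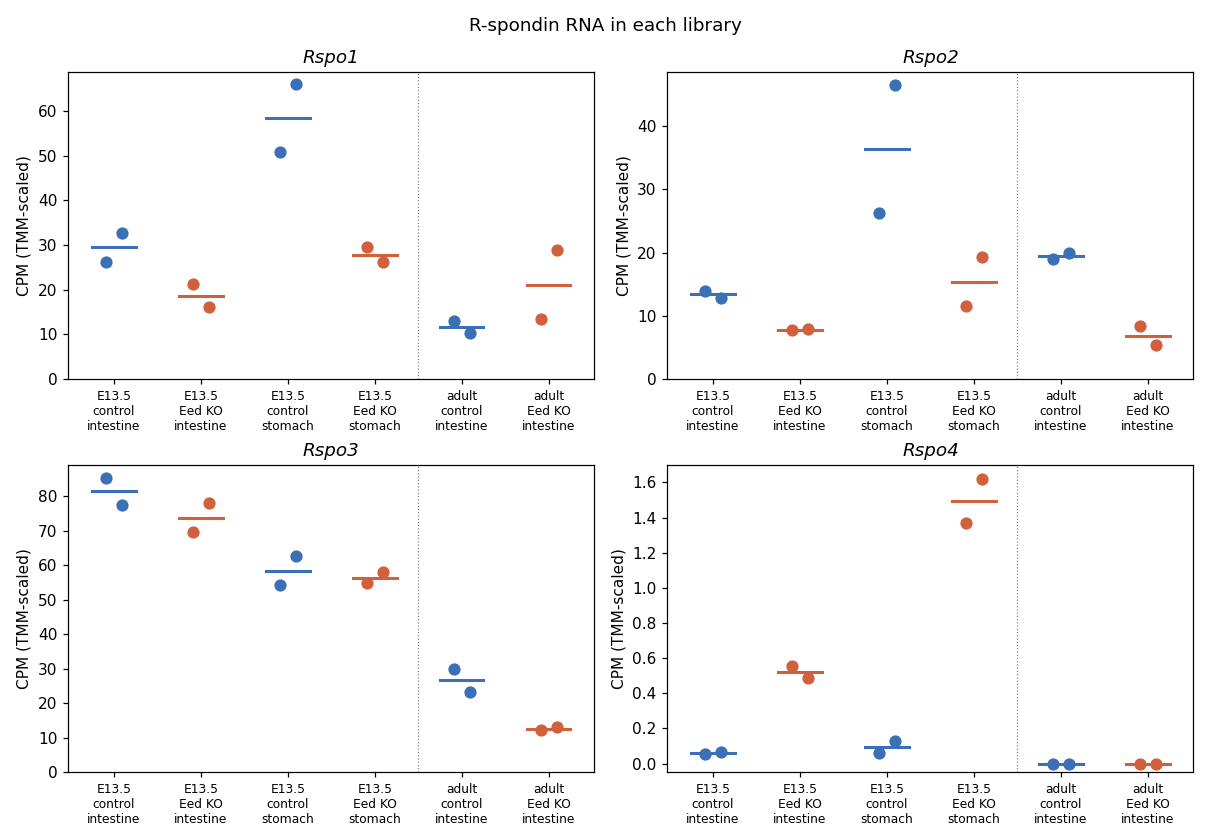
TMM-scaled CPM of each R-spondin gene by group, with 1 point per library (n = 2) and a bar at the mean, embryonic groups left and adult groups right of the dotted line, which were scaled separately. *Rspo4* leaves the baseline only in the embryonic *Eed* KO libraries (0.49 to 1.62 CPM), and the highest points of *Rspo1* and *Rspo2* are in control stomach replicate 2.

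In the *Eed* KO embryo the 4 genes split. *Rspo4* rose from near 0 in both organs, *Rspo1* fell in the stomach, *Rspo2* had lower values in both organs that did not pass the test, and the values of *Rspo3* overlapped between the genotypes. *Rspo4* had 21 and 17 counts in the *Eed* KO intestine, or 0.554 and 0.485 CPM, against 2 and 2 counts in the control. The *Eed* KO stomach held 51 and 59 *Rspo4* counts, or 1.37 and 1.62 CPM, against 2 and 5. The ratio of summed counts, scaled by library size, was 8.50 in the intestine (exact 95% counting interval 3.06 to 32.8) and 15.7 in the stomach (7.37 to 39.99). All *Eed* KO libraries lay above all controls of their organ, and the edgeR fit gave log2 fold changes of 3.01 (SE 0.51, adjusted p = 0.0255) and 3.93 (SE 0.42, adjusted p = 0.00241). Even so, *Rspo4* stayed at 0.664 ± 0.0386 TPM in the *Eed* KO intestine and 2.02 ± 0.296 TPM in the *Eed* KO stomach (n = 2), or 1.46% ± 0.126 of the summed R-spondin TPM in the latter. The intestinal call was lost when any 1 of the 4 libraries was left out (adjusted p 0.0733 to 0.208), and the stomach call was kept in all such fits. With DESeq2 and 1 spike-in factor the adjusted p was 0.153 in the intestine and 0.0549 in the stomach.

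*Rspo1*, whose control level was highest in the stomach, was at 29.6 and 26.1 CPM in the *Eed* KO stomach, about the level of the control intestine, against 50.7 and 65.9 CPM in the control. It was called lower (log2 fold change -1.07, SE 0.19, adjusted p = 0.0177). The call was lost without control stomach replicate 2 (-0.87, adjusted p = 0.118), without *Eed* KO stomach replicate 1 or 2 (adjusted p = 0.0532 and 0.114) and with DESeq2 and 1 spike-in factor (-0.65, adjusted p = 0.258). In the intestine *Rspo1* was at 21.3 and 16.1 CPM in the *Eed* KO and at 26.2 and 32.7 CPM in the control (-0.66, SE 0.19, adjusted p = 0.143), with the same direction and no overlap.

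*Rspo2* was at 11.5 and 19.2 CPM in the *Eed* KO stomach and at 26.3 and 46.5 CPM in the control, where its log2 fold change was -1.25 (SE 0.31) at an adjusted p of 0.0510, just outside the threshold. DESeq2 placed it inside (adjusted p = 0.00105), as did a replicate block. Of the 12 alternatives 5 called it, and the adjusted p ran from 0.00105 to 0.257. In the intestine it was at 7.76 and 7.87 CPM in the *Eed* KO and at 13.9 and 12.8 CPM in the control (-0.78, SE 0.31, adjusted p = 0.317). *Rspo3* was at 69.7 and 78.0 CPM in the *Eed* KO and 85.4 and 77.6 in the control intestine, with overlap, and its 95% interval ran from -0.41 to 0.12 on the log2 scale. In the stomach it was at 54.9 and 58.004 CPM against 54.3 and 62.6 CPM, with an interval from -0.32 to 0.22.

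Counted over the members, 1 of 4 was called higher and none lower in the *Eed* KO intestine, against 2.38% and 0.228% of all tested genes. For the stomach, 1 was called higher and 1 lower, against 4.84% and 0.808%. These values are relative to the bulk of genes in each library. The share of spike-in RNA was lowest in the *Eed* KO embryos, and when libraries were scaled to their spike-in totals the median log2 fold change over all genes rose by 1.85 (intestine) or 2.39 (stomach), which turned the direction of *Rspo1*, *Rspo2* and *Rspo3* in both organs. Endothelial markers moved with the genotype, from 14.9469 and 19.9556 to 46.9631 and 48.1011 summed CPM in the intestine and from 14.9152 and 15.3044 to 24.5724 and 44.9494 CPM in the stomach, with 2 and 3 of the 5 called higher. Of 12 marker lists in the stomach, 4 summed to less in the *Eed* KO without overlap, 4 to more and 4 overlapped. Unchanged markers separate with a probability of 0.333. Mesothelium (335.456 and 435.754 against 539.538 and 561.22 CPM) and smooth muscle (1582.53 and 1814.21 against 2464.12 and 2557.69 CPM) were lower. So were pericytes (501.453 and 530.26 against 680.842 and 728.525 CPM) and telocytes (75.4185 and 76.4265 against 77.3625 and 87.2731 CPM). None of the genes in these lower lists was called. Endothelium, crypt-base fibroblast, leukocyte and pancreas markers summed to more, the last 2 at most 2.47 and 1.07 CPM. Members of the lower lists differed. Mesothelial *Wt1* (112.3 and 140.4 against 77.3 and 76.2 CPM) and smooth muscle *Des* (55.8 and 72.4 against 43.0 and 42.5 CPM) were higher without overlap. So was *Msln*, at most 0.603 CPM, while *Myh11*, *Cspg4*, *Rgs5*, *Foxl1*, *F3* and *Bmp7* overlapped. Pericyte markers were lower in the *Eed* KO intestine as well (422.245 and 647.596 against 753.245 and 877.037 CPM), while mesothelium and smooth muscle markers overlapped there. Of the 12 lists in the intestine, 3 were lower, 2 higher and 7 overlapped. The part of these markers in the R-spondin values was not tested.

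The organ difference within the *Eed* KO resembled that of the controls in direction for *Rspo1*, *Rspo2* and *Rspo3*, whose log2 fold changes between intestine and stomach were -0.58 (SE 0.19, adjusted p = 0.146), -0.97 (SE 0.31, adjusted p = 0.129) and 0.39 (SE 0.11, adjusted p = 0.104). None of these passed the test. *Rspo4*, near 0 in both control organs, was lower in the *Eed* KO intestine than in the *Eed* KO stomach, with 38 against 110 summed counts. The stomach exceeded the intestine by a scaled ratio of 2.86 (exact 95% counting interval 1.96 to 4.26), and the fit gave -1.51 (SE 0.33, adjusted p = 0.0401). One of 4 members was called lower and none higher, against 2.94% and 1.46% of tested genes, and the *Rspo4* call was lost when any 1 of the 4 libraries was left out (adjusted p 0.124 to 0.220) and with DESeq2 (adjusted p = 0.137). The interaction of organ and genotype, the test of whether the organ difference itself changed, called none of the 4, and 0.462% of all tested genes. Its estimate was -0.41 for *Rspo1* (95% interval -1.04 to 0.22), -0.47 for *Rspo2* (-1.49 to 0.54), 0.09 for *Rspo3* (-0.29 to 0.47) and 0.92 for *Rspo4* (-0.94 to 2.78), each with an adjusted p of 0.999983. At an unadjusted p under 0.05 the count was also 0, as it was with DESeq2 and limma-voom at the adjusted threshold of 0.2.

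**Figure D4:**
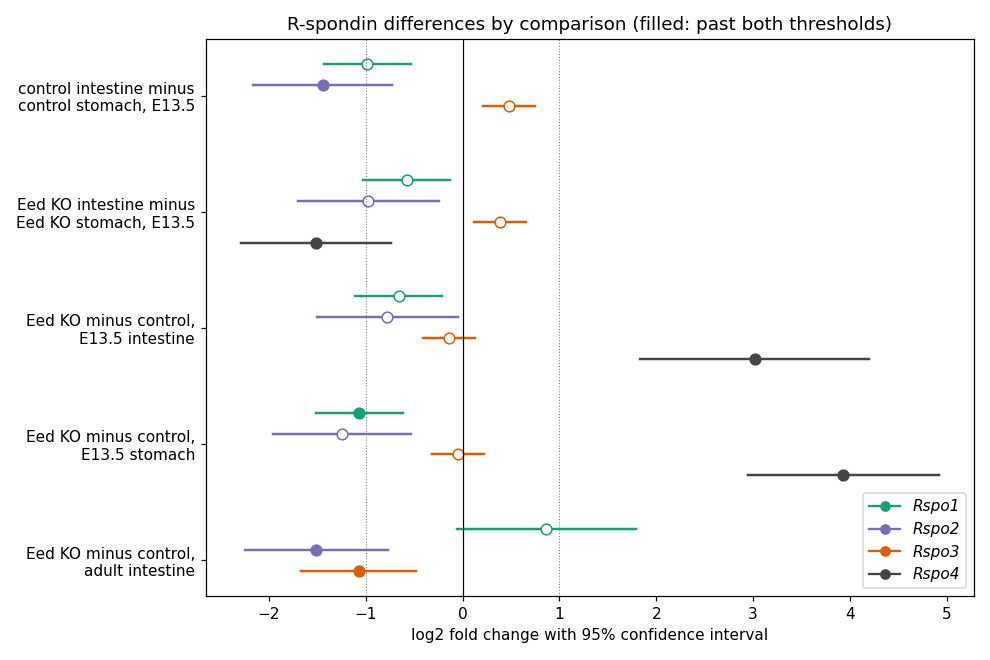
Log2 fold change of each R-spondin gene in 5 comparisons, with the 95% confidence interval of the edgeR fit. Filled points passed both thresholds, open points did not, and dotted lines mark a log2 fold change of 1 in either direction. *Rspo4* stands far to the right in both embryonic *Eed* KO comparisons (3.01 and 3.93), and *Rspo4* is left out where its counts allowed no fold.

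In the adult intestine *Rspo2* and *Rspo3* were lower in the libraries labelled *Eed* KO, *Rspo1* had higher values that did not pass the test, and *Rspo4* had a count of 0 in all 4 libraries. *Rspo2* fell from 19.0 and 19.97 CPM in the controls to 8.33 and 5.41 CPM (log2 fold change -1.51, SE 0.31, adjusted p = 0.0145). *Rspo3* fell from 30.004 and 23.3 CPM to 12.2 and 13.1 CPM (-1.07, SE 0.25, adjusted p = 0.0232). Neither gene's groups overlapped. *Rspo1* was at 13.3 and 28.8 CPM in the *Eed* KO and at 12.9 and 10.4 CPM in the control libraries (0.86, SE 0.39, adjusted p = 0.158), a value set mostly by *Eed* KO replicate 2. Without *Eed* KO replicate 1 the change was 1.29 (adjusted p = 0.0238), and without *Eed* KO replicate 2 it was 0.19 (adjusted p = 0.778). Replicate 2 also stood apart in its pancreas markers, which summed to 1257.53 CPM there, to 29.5 CPM in *Eed* KO replicate 1 and to 47.2 and 20.9 CPM in the controls. Their part in the *Rspo1* value was not tested. With 2 of 3 tested members called lower and none higher, the background was high, since 7.23% of the 15039 tested genes were called lower and 12.3% higher. The *Rspo3* call was lost without control replicate 1 (adjusted p = 0.124) and without either *Eed* KO replicate (0.0538 and 0.0506), and the *Rspo2* call was kept when any 1 library was left out. With DESeq2 and 1 spike-in factor neither was called (adjusted p = 0.251 for *Rspo2* and 0.128 for *Rspo3*).

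Most cell type markers of the adult libraries differed between the groups as well. Of 12 marker lists, 6 summed to more in the *Eed* KO libraries without overlap, 5 summed to less and 1 overlapped. Their part in the R-spondin values was not tested. All 5 macrophage and leukocyte markers tested were called higher in the *Eed* KO libraries, at a median log2 fold change of 4.97 against 0.00 for all genes. *C1qb*, a complement gene of macrophages, stood at 3591.28 and 3642.86 CPM against 68.9 and 161.3 CPM. Smooth muscle markers also summed to more (3000.58 and 3515.69 against 1767.95 and 2154.95 CPM), with *Myh11* and *Cnn1* called higher. Lymphatic endothelium markers summed to 809.381 and 540.477 CPM in the *Eed* KO and to 53.7 and 57.2 CPM in the controls, with 3 of 4 called higher. Of the 6 mesenchyme markers tested, 4 were called lower (*Pdgfra*, *Col1a1*, *Col1a2* and *Col3a1*), as were 3 of 4 pericyte markers and 3 of 4 markers of subepithelial telocytes, the *Foxl1*-expressing cells beneath the epithelium. Per 1000 CPM of the summed mesenchyme markers of the same library, *Rspo2* was at 1.68 and 1.68 CPM in the controls and at 1.68 and 1.57 CPM in the *Eed* KO, with overlap. *Rspo3* was at 2.65 and 1.97 in the controls and at 2.47 and 3.80 in the *Eed* KO, also with overlap. *Rspo1* was at 1.14 and 0.875 in the controls and at 2.69 and 8.38 in the *Eed* KO, without overlap. When libraries were scaled by these markers, a choice made after the values were seen, the median of all genes rose by 1.51, the log2 fold change of *Rspo2* was -0.05 (adjusted p = 0.925), that of *Rspo3* was 0.44 (adjusted p = 0.347) and that of *Rspo1* was 2.46 (adjusted p = 0.00111). That scaling called 9701 of the 15039 tested genes higher and 133 lower, so a call of *Rspo1* there was shared with most genes. *Rspo2* and *Rspo3* were thus lower per library, while per unit of that marker sum their groups overlapped. The sum consists mostly of *Col1a1*, *Col1a2* and *Col3a1*, which were called lower themselves. *Pdgfrb*, another marker of the sum, was at 162.2 and 123.9 CPM in the controls and at 89.2 and 92.8 CPM in the *Eed* KO. *Vim* overlapped, at 420.6 and 381.1 against 312.9 and 388.6 CPM. Scaling by single markers was not tried.

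**Figure D5:**
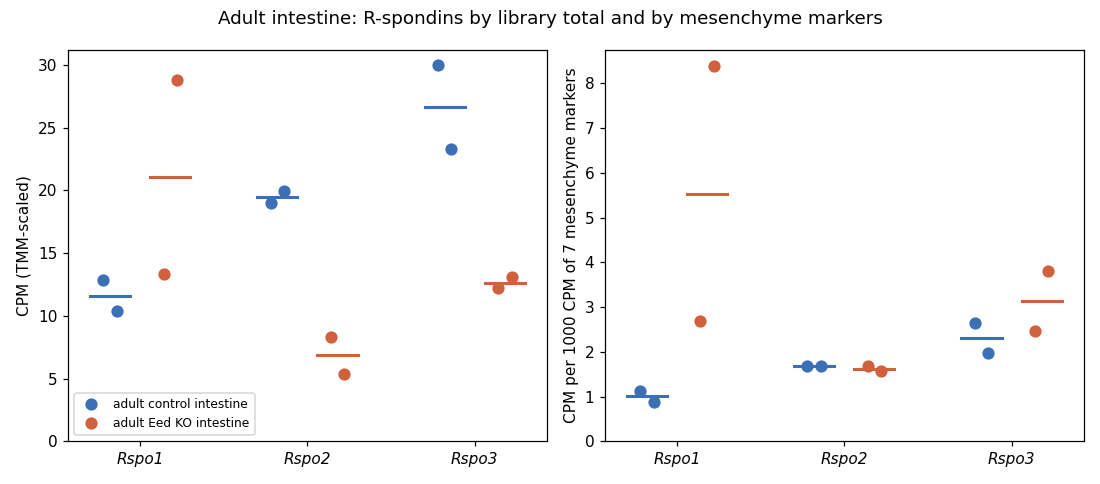
*Rspo1*, *Rspo2* and *Rspo3* in the 4 adult libraries (points) with group means (bars, n = 2), as TMM-scaled CPM on the left and per 1000 CPM of the 7 summed mesenchyme markers on the right. On the left *Rspo2* and *Rspo3* are lower in the *Eed* KO, and on the right *Rspo2* lies between 1.57 and 1.68 in all 4 libraries.

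Across stages, the levels can only be set side by side, since the embryonic and adult libraries differed in Cre driver, dissection, kit and normalization and were not tested against each other. *Rspo3* was highest in the E13.5 control intestine (101.9 ± 4.67 TPM) and *Eed* KO intestine (93.7 ± 10.8), which overlapped, followed by the *Eed* KO stomach (75.6 ± 5.13) and the control stomach (74.1 ± 7.33), which also overlapped, then by the adult control (28.6 ± 5.63) and the adult *Eed* KO (9.17 ± 0.273), which were separate. *Rspo1* ran from 91.4 ± 16.6 TPM in the control stomach through the *Eed* KO stomach (46.0 ± 2.79) and the control intestine (45.7 ± 8.12), which overlapped, to the *Eed* KO intestine (29.1 ± 4.71) and the 2 adult groups (18.5 ± 8.39 in the *Eed* KO and 15.4 ± 2.66 in the control), which overlapped with each other. *Rspo2* was the one member with a higher value in the adult control intestine (15.0 ± 0.212 TPM) than in the E13.5 control intestine (12.05 ± 0.442), and its share of the summed R-spondin TPM was 25.7% ± 3.88 in the adult and 7.55% ± 0.420 in the embryo. Its adult control level overlapped with that of the *Eed* KO stomach (14.9 ± 5.70 TPM), which in turn overlapped with the E13.5 control intestine, and it was lowest in the *Eed* KO intestine of the embryo (7.13 ± 0.332) and of the adult (3.63 ± 1.35). The summed TPM of the 4 genes was 59.1 ± 8.07 in the adult control and 31.4 ± 6.77 in the adult *Eed* KO.

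Across the 8 embryonic libraries, *Rspo1* and *Rspo2* ran together and apart from *Rspo3*, with a Pearson r of 0.92 between *Rspo1* and *Rspo2*, -0.48 between *Rspo1* and *Rspo3* and -0.45 between *Rspo2* and *Rspo3*, on log2(CPM + 1). The genes most like *Rspo1* among all tested were *Mgat1* (r = 0.99), *Tpst1* (0.98) and *Stt3a* (0.97). Those most like *Rspo2* were *Pcdh7* (0.98), *Gm9885* (0.98) and *Gclm* (0.96), and those most like *Rspo3* were *Arhgap6* (0.99), *Vegfb* (0.98) and *Col6a4* (0.98). These are descriptions over 8 libraries that share organ, genotype and replicate preparation, and with 16218 genes to choose from high values will occur. *Rspo4* was below the mean of 1 CPM that the ranking required.

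The receptors and ligases through which R-spondins act were measured in the same mesenchymal libraries, although the cells that respond to R-spondins in the gut are mostly epithelial. None of *Lgr4*, *Lgr5*, *Lgr6*, *Rnf43* and *Znrf3* was called in any comparison. *Lgr4* was the most abundant of them in the embryo, between 90.4 and 121.3 CPM, and *Znrf3* stood between 19.7 and 26.2 CPM. *Lgr6* ranged from 3.70 to 9.22 CPM. *Lgr5*, the receptor that marks intestinal stem cells in the epithelium, had 0.112 and 0.0337 CPM in the control intestine and 0.435 and 0.510 CPM in the control stomach (log2 fold change -2.58, adjusted p = 0.0960), and 0.456 and 1.23 CPM in the *Eed* KO stomach. *Rnf43*, itself a Wnt target, was at 2.06 and 3.24 CPM in the control stomach and at 4.18 and 6.31 CPM in the *Eed* KO stomach, without overlap and without passing the test (0.98, SE 0.31, adjusted p = 0.111). In the adult, *Lgr4* was at 6.15 and 5.68 CPM in the control and 2.81 and 2.47 CPM in the *Eed* KO libraries (-1.16, SE 0.44, adjusted p = 0.100), *Rnf43* was at 1.24 and 0.841 against 0.702 and 0.464 CPM, *Lgr5* was at 0.732 and 2.17 against 2.41 and 1.93 CPM, and *Lgr6* was too low to be tested.

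Heparan sulfate proteoglycans, which bind R-spondins and Wnts at the cell surface, gave no call among 10 tested in any embryonic comparison. Of 13 Wnt ligands tested, 4 were called lower in intestinal than in gastric control libraries, where 3.39% of all tested genes were. They were *Wnt2* (0.0562 and 0.202 against 1.25 and 3.03 CPM), *Wnt2b* (32.9 and 47.0 against 85.7 and 102.0 CPM), *Wnt11* (6.69 and 5.75 against 14.2 and 11.5 CPM) and *Wnt3* (at most 0.459 CPM), with a list median of -1.23 against 0.00 for all genes. *Wnt3* and *Wnt11* were called lower between the *Eed* KO organs too, against 2.94% of tested genes. With *Eed* KO against control, 2 ligands were called higher in the intestine (*Wnt2* and *Wnt6*) and 3 in the stomach (*Wnt6*, *Wnt10b* and *Wnt11*). None was called lower, and of all tested genes 2.38% and 4.84% were called higher. *Wnt10b* was near the floor, at most 0.402 CPM in the *Eed* KO stomach. *Wnt11* rose from 14.2 and 11.5 to 35.8 and 32.7 CPM in the stomach (1.41, SE 0.21, adjusted p = 0.00852), where *Rspo1* fell. Of 15 Wnt receptors and co-receptors, *Fzd5* was called lower in the control intestine (16.5 and 13.2 against 79.9 and 40.0 CPM) and *Fzd10* higher in the *Eed* KO stomach (3.86 and 5.90 against 2.32 and 2.01 CPM). Of 8 Wnt feedback targets, *Lef1*, a transcription factor that acts with beta-catenin, was called higher in the *Eed* KO intestine, at 2.45 and 2.20 against 0.197 and 0.505 CPM. *Lef1* and *Sp5*, another transcription factor induced by Wnt, were called lower in the intestine than in the stomach in both genotypes, although *Sp5* stayed at or below 0.905 CPM. *Axin2*, the usual readout of the pathway, was called in none of the comparisons.

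The adult calls in these lists stand beside 7.23% of all tested genes called lower and 12.3% called higher. Of 12 receptors and co-receptors tested, 6 were called lower, with a list median of -1.03, among them *Fzd2* (7.03 and 4.10 against 31.3 and 21.2 CPM), *Fzd1* (23.2 and 21.0 against 65.2 and 79.8 CPM) and *Ror2* (3.01 and 5.72 against 12.2 and 11.8 CPM). Of 7 ligands tested, *Wnt2b*, *Wnt5a* and *Wnt4* were called lower and *Wnt11* higher, and of 5 feedback targets *Apcdd1*, an inhibitor of Wnt signalling, was called lower (4.42 and 3.71 against 24.2 and 17.4 CPM). Among 8 heparan sulfate proteoglycans, *Sdc2*, *Gpc1* and *Gpc6* were called lower and *Sdc4* higher (600.2 and 973.0 against 158.9 and 165.5 CPM). The mesenchyme and leukocyte markers given above moved with all of these, and their part was not tested.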

How the data were processed

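The RNA-seq reads were trimmed with Trimmomatic 0.32 and aligned by the authors to GRCm38/mm10 with STAR 2.5.1b, with spike-in sequences added, and counted on GENCODE vM4 genes with featureCounts (1.5.0 per the file headers of the adult data). Versions come from the submitters' processing notes and headers. The deposited counts were whole numbers without normalization, stranded poly(A) in the embryo and unstranded in the adult, where a low-input kit was used. For ATAC-seq, the authors aligned reads with BWA, merged the replicates within a condition and ran MACS2 2.1.2 in its broad-peak mode. The deposited peak lists give a fold enrichment, which is a ratio to the local background, and a -log10 q. The stated q threshold is stricter than the lists, whose weakest peaks have a -log10 q of about 1.

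Counts of all 43280 genes were reduced by filterByExpr to 16218 embryonic and 15039 adult genes, scaled with TMM and entered in the quasi-likelihood test of edgeR (version 4.0.16, R 4.3.3). The embryonic fit had 4 group means, the adult fit 2. Genes were called at a Benjamini-Hochberg adjusted p below 0.05 (0.2 for the interaction) together with an absolute log2 fold change over 1. Standard errors are the absolute log2 fold change divided by the square root of F. With 2 libraries per group, an exact permutation test of 1 gene could not go below p = 0.333, so no such test was used, and p-values measure the spread between libraries whose separate origin the labels do not state. The procedure was tested on simulated data. TPM used the exon lengths of the adult files. Alternatives were DESeq2 1.42.0, alone and with 1 RUVg factor from the spike-ins, RLE scaling, spike-in scaling, no filter, the adjusted p alone, a replicate block, the compared groups alone, limma-voom 3.58.1 for the interaction, and each library left out in turn. All 4 members are named throughout, as is every receptor and ligase gene. From the other pathway lists up to 3 genes per comparison were eligible, those with the largest change among called genes whose mean reached 1 CPM and whose groups did not overlap, and for likeness the 3 tested genes with the highest Pearson r were taken. Smaller calls are named where a count is 5 or fewer. The rule for the members uses names only, but the family and the gene lists were chosen with earlier results of these data known. Tables and sequences were handled with Python 3.11.15, pandas 2.3.3 and numpy 2.4.6.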

Additional observations from a re-analysis of the deposited data

Results flagged for a closer look

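*Rspo1* differed between *Eed* KO and control in opposite directions at the 2 stages. In the E13.5 intestine both *Eed* KO libraries lay below both controls (log2 fold change -0.66), as in the E13.5 stomach (-1.07), and in the adult intestine both lay above (0.86). The difference between these changes was not tested, since the stages were counted and normalized separately, and the adult change did not pass its own test (adjusted p = 0.158, edgeR). With libraries scaled to their spike-in totals *Rspo1* was higher in the *Eed* KO at both stages (1.12, 1.27 and 0.42), so the contrast turns with that scaling. Without adult *Eed* KO replicate 2, whose pancreas markers summed to 1257.53 CPM against at most 47.2 CPM in the other adult libraries, the adult change was 0.19. On the TPM scale the adult groups overlapped, at 12.6 and 24.5 in the *Eed* KO and 17.3 and 13.53 in the control libraries.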

How the results depend on the processing

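The 4 promoter peaks were in every list under each threshold and window tried, and 2 of 3 detected members were lower in the adult than in the E13.5 control intestine in both TPM and CPM. Counts of called members moved as follows. Between the control organs the count of 1 became 0 with spike-in scaling and 2 with the adjusted p alone, and ranged from 0 to 2 with 1 library left out. In the *Eed* KO intestine the count of 1 became 2 with spike-in scaling. That scaling called 13664 of all 16218 tested genes higher and 24 lower there, and 15419 higher and 19 lower in the stomach. The intestinal count became 0 with the compared groups alone or any library left out. In the *Eed* KO stomach the count of 2 became 3 with DESeq2, no filter or the replicate block, which added *Rspo2*, became 1 with DESeq2 and 1 RUVg factor, and ranged from 1 to 3 with 1 library left out. With the RUVg factor *Rspo2* was the 1 member called in either *Eed* KO organ (-1.34 and -2.003), and *Rspo1* and *Rspo4* were not. Between the *Eed* KO organs the count of 1 became 0 with DESeq2, spike-in scaling, the RUVg factor, the compared groups alone and any library left out. In the adult the count of 2 became 0 with the RUVg factor and ranged from 1 to 2 with 1 library left out. It became 1 with marker scaling, which called 9701 of the 15039 tested genes higher and 133 lower. Directions turned with spike-in scaling for *Rspo1*, *Rspo2* and *Rspo3* in the intestine (1.12, 1.07 and 1.74) and the stomach (1.27, 1.26 and 2.35), and for *Rspo1* and *Rspo2* in the interaction (0.15 and 0.19). They also turned for *Rspo3* with marker scaling in the adult (0.44), for *Rspo4* between the control organs and *Rspo3* in the *Eed* KO stomach without control stomach replicate 2, and for *Rspo3* in the interaction without control stomach replicate 1. With 1 library left out these values ran from -1.01 to 0.0805, from -0.154 to 0.0571 and from -0.0082 to 0.198. The cause was not tested beyond the shift of all genes that these scalings bring.

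The labels number the replicates but do not say that a number marks a shared embryo or day, and deviations of same-numbered libraries correlated at 0.37 between the control organs, 0.75 between the *Eed* KO organs and 0.14 to 0.28 across genotypes. A replicate block moved 1 call, *Rspo2* in the *Eed* KO stomach, to an adjusted p of 0.0140, and changed no other call of a member. In the blocked interaction *Rspo1* had an adjusted p of 0.166, inside 0.2, at a size of -0.40, below 1.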

Other observations

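The intronic *Rspo2* region at chr15:43167783-43167978, listed in both *Eed* KO conditions and in neither control, was among 41 of 22305 *Eed* KO stomach peaks whose -log10 q reached 20 (0.184%) that overlapped an *Eed* KO intestine peak and no control peak. That threshold lies just under the region's value of 20.3 in the *Eed* KO intestine list. Of all *Eed* KO stomach peaks, 6.07% overlapped an *Eed* KO intestine peak and no control peak. *Rspo2* RNA was at 7.76 to 19.2 CPM in the *Eed* KO and 12.8 to 46.5 CPM in the control embryos. The *Rspo1* likeness list held *Mgat1* and *Stt3a*, which act in protein N-glycosylation, and *Tpst1*, a protein tyrosine sulfotransferase. *Cd81*, placed in the list of crypt-base fibroblast markers and also expressed by leukocytes, was at 3217.75 and 3558.83 CPM in the adult *Eed* KO and 191.7 and 317.0 CPM in the adult control libraries, while the other 3 genes of that list were not called.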
